A study of Nannochloropsis oceanica with 18 samples.

Results

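Nitrate assimilation turns nitrate from the medium into amino acids. High-affinity transporters carry nitrate into the cell, nitrate reductase reduces it to nitrite with the help of a molybdenum cofactor, and nitrite reductase, which carries siroheme and takes electrons from ferredoxin, reduces nitrite to ammonium in the plastid. Glutamine synthetase then joins ammonium to glutamate, and glutamate synthase regenerates glutamate from the glutamine. The pathway thus draws on carbon skeletons made from fixed CO2 and on the photosynthetic reductant that CO2 fixation also uses.

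The 4 genes described here are the assimilatory nitrate reductase g2405, the high-affinity nitrate transporter g7989 and the glutamine synthetases g691 and g6874 (the last annotated as glutamate ammonia ligase, another name of the same enzyme). They were taken by gene ID from the 9756 genes measured in Nannochloropsis oceanica IMET1, a unicellular marine alga. They were chosen with their levels in these libraries already known, so their levels, differences and calls are a description, not a test. Poly(A) mRNA of whole cells was sequenced in 18 libraries, 2 for each of 9 groups. All cultures grew under continuous light at 25 °C in medium with 1 g/l NaNO3. Seed cells grown at 5% CO2 were washed, moved to fresh medium and held there for 1 h at 5% CO2. The 0 h group was sampled at that point, so 0 h is 1 h after the move to fresh medium. The VLC (very low CO2) groups then received 0.01% CO2 and the HC (high CO2) groups stayed at 5% CO2, each sampled at 3, 6, 12 and 24 h. The sources do not say which of the reactors each library came from, so the spread between the 2 libraries of a group may be partly technical.

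Levels are FPKM (fragments mapped per kilobase of transcript, scaled to all fragments mapped in the library), which are shares of the mRNA in a library, so less mRNA of a gene and more mRNA of the others cannot be told apart. Differences are on the log2(FPKM + 1) scale with the standard error (SE) of a limma model of 9265 genes. A gene was called where its Benjamini-Hochberg adjusted p was at most 0.05, over genes with a mean of at least 10 FPKM in either group, and the difference was at least 2-fold. The median absolute log2 difference between the 2 libraries of a group was 0.0613 to 0.234, widest in HC at 3 h. At 12 h the median gene stood 0.58 higher in VLC than in HC on the log2 scale, and 0.52 below 0 h in HC (log2 difference -0.52). Differences at 12 h are therefore also given relative to the median gene, or its value is given with them.

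The nitrate transporter g7989 (scaffold00271:268111-270893 of the IMET1 assembly used in the deposited table) was the most abundant of the 4 genes at 0 h and stood well below its 0 h level in both arms afterwards. Its level at 0 h was 4689 and 5239 FPKM. In VLC the 2 libraries held 1815 and 1798 FPKM after 3 h, 546 and 390 after 6 h, 372 and 359 after 12 h, and 463 and 515 after 24 h. In HC they held 2483 and 1943 FPKM after 3 h, 914 and 932 after 6 h, 483 and 564 after 12 h, and 1767 and 1793 after 24 h. Every later library lay below both 0 h libraries, and at each time both VLC libraries lay below both HC libraries. The 0 h mean was 13.6 times the VLC mean and 9.48 times the HC mean at 12 h. Between 12 and 24 h the arms parted: the HC mean returned to 35.9% of the 0 h mean while the VLC mean stood at 9.85% of it. The gene ranked between place 4 and place 232 among the 9756 genes across the 18 libraries.

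**Figure D1:**
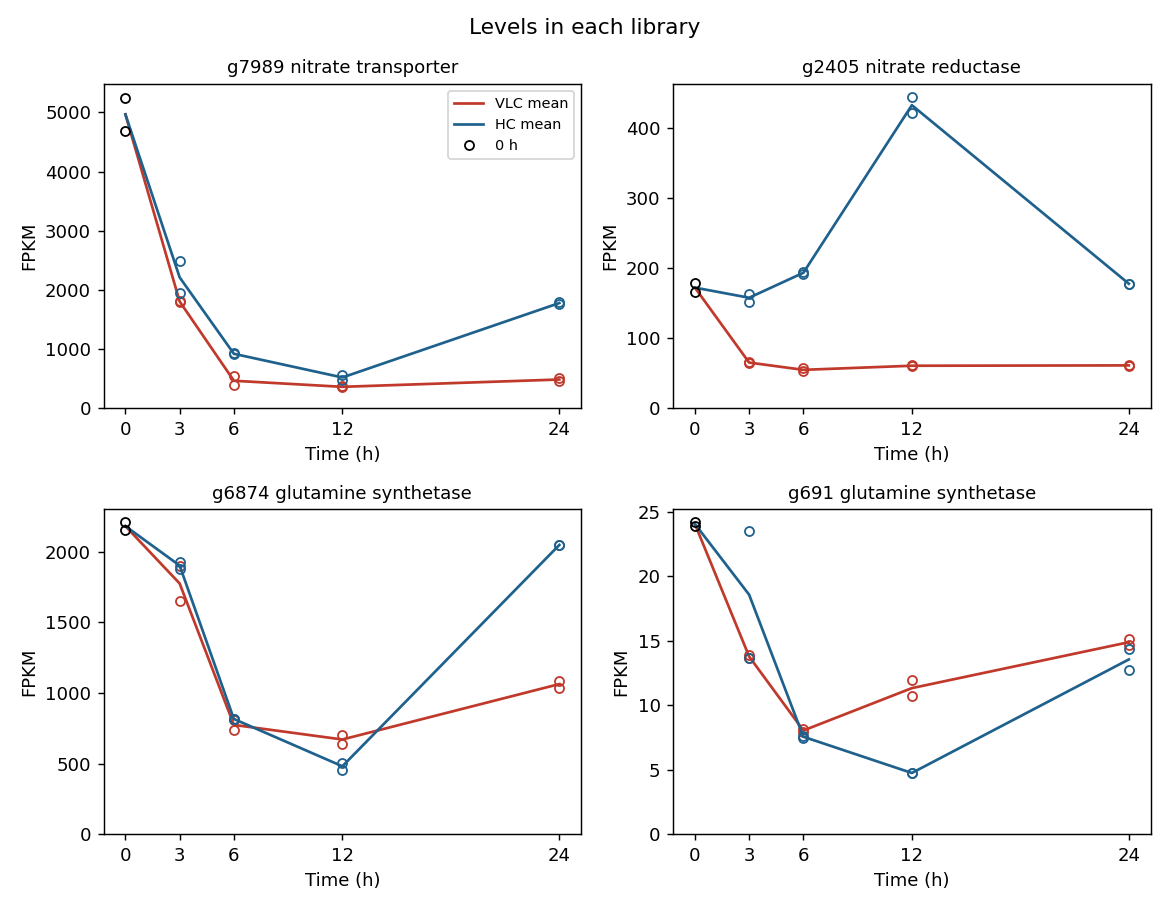
FPKM (linear axis from 0) of the transporter g7989, the nitrate reductase g2405 and the glutamine synthetases g6874 and g691 against time in hours. Circles are single libraries, black at 0 h, and lines join the means of 2 libraries in VLC (red) and HC (blue); g2405 stood at 422 and 444 FPKM in HC at 12 h against 60.4 and 61.6 in VLC.

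The assimilatory nitrate reductase g2405 (scaffold00069:510084-512318) stood lower in VLC than in HC at every time, and in HC it was highest at 12 h. At 0 h it stood at 166 and 179 FPKM. In VLC it stood at 66.0 and 65.0 FPKM after 3 h, 53.0 and 57.3 after 6 h, 61.6 and 60.4 after 12 h, and 61.0 and 62.0 after 24 h. In HC it stood at 152 and 164 FPKM after 3 h, 195 and 192 after 6 h, 444 and 422 after 12 h, and 178 and 178 after 24 h. The VLC level was thus low from the first sampling and flat afterwards, while the HC level peaked at 12 h and overlapped the 0 h libraries again at 24 h. No VLC library reached any HC library at any time. The HC mean was 2.41, 3.51, 7.10 and 2.90 times the VLC mean in the order of the 4 times.

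The glutamine synthetase g6874 (scaffold00247:895523-898438) was the abundant of the pair, at 2150 and 2211 FPKM at 0 h and among the 185 most abundant genes in every library. In VLC it stood at 1897 and 1652 FPKM after 3 h, 811 and 736 after 6 h, 701 and 640 after 12 h, and 1038 and 1087 after 24 h. In HC it stood at 1878 and 1925 FPKM after 3 h, 812 and 819 after 6 h, 457 and 505 after 12 h, and 2046 and 2048 after 24 h. Both arms had come to a similar lower level by 6 h, their libraries overlapping at 3 h, and the order then turned: at 12 h VLC lay above HC and at 24 h HC lay above VLC. At 24 h the HC mean was 93.9% of the 0 h mean and the VLC mean was 48.7% of it.

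The glutamine synthetase g691 (scaffold00009:960768-962383) was weakly expressed, at 23.9 and 24.2 FPKM at 0 h, and had a mean of at least 10 FPKM in 6 of the 9 groups. In VLC it stood at 13.6 and 13.9 FPKM after 3 h, 7.96 and 8.13 after 6 h, 11.9 and 10.7 after 12 h, and 14.7 and 15.1 after 24 h. In HC it stood at 23.5 and 13.6 FPKM after 3 h, 7.47 and 7.65 after 6 h, 4.79 and 4.71 after 12 h, and 12.8 and 14.3 after 24 h. The 2 HC libraries at 3 h lay far apart and enclosed the higher VLC library, so no order of the arms can be read there. Measured per length, the abundant g6874 exceeded g691 by a factor of 58.7 to 160 in single libraries, lowest in VLC at 12 h and highest in HC at 24 h. Reads that map to several places were left out of these values, and how much sequence the 2 glutamine synthetase genes share was not examined.

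Ordered by level over the 9 groups, the 4 genes did not share one order. The nitrate reductase g2405 had its 5 highest groups among 0 h and the HC groups, with HC at 24 h and 0 h overlapping, and its lowest in the 4 VLC groups, where 24 h and 12 h overlapped. The transporter g7989 was highest at 0 h and lowest in VLC at 12 h, and HC at 12 h, VLC at 24 h and VLC at 6 h overlapped next to each other. Both glutamine synthetases were highest at 0 h and lowest in HC at 12 h, where g2405 was at its highest. The median gene was also lowest against 0 h there (log2 difference -0.52, against 0.15 in VLC at 12 h). The orders and ratios given here are not relative to the median gene. The ratio of the highest to the lowest group mean was 13.6 for g7989, 7.85 for g2405, 5.07 for g691 and 4.53 for g6874.

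The comparison of VLC with HC at the same time asks what low CO2 itself changes, apart from changes with time in culture. For g2405 the log2 difference (VLC minus HC) was -1.26, -1.79, -2.81 and -1.52 for 3, 6, 12 and 24 h, each with an SE of 0.065. For g7989 it was -0.28, -0.998, -0.51 and -1.86 for the same times, with an SE of 0.14. The difference thus exceeded 2-fold for the reductase at all 4 times and for the transporter at 24 h. For g6874 the differences were -0.10, -0.08, 0.48 and -0.95 at 3, 6, 12 and 24 h (SE 0.078). For g691 they were -0.36 at 3 h, 1.10 at 12 h and 0.13 at 24 h (SE 0.17), and at 6 h both groups were below 10 FPKM. Relative to the median gene at 12 h, g2405 stood at -3.39, g7989 at -1.10, g6874 at -0.11 and g691 at 0.51, so the higher level of both glutamine synthetases in VLC at 12 h did not exceed 2-fold on that scale, and for g6874 the sign turned.

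The call rule marked 1 of the 4 genes at 3 h (g2405, lower), where it marked 0.969% of all genes tested and 0.268% as lower. At 6 h it marked 1 of the 3 tested (g2405, lower), against 2.09% of all genes and 0.252% as lower, with g7989 just outside the 2-fold limit. At 12 h it marked g2405 lower and g691 higher, 2 of 4, against 32% of all genes, 4.36% as lower and 27.6% as higher. At 24 h it marked g2405 and g7989 lower, 2 of 4, against 17.2% of all genes and 5.95% as lower, with g6874 just outside. Because the 4 genes were picked with these contrasts known, nothing is read from these counts. Over all genes, VLC-HC calls at 12 h numbered 2325 higher and 367 lower, and relative to the median gene 744 higher and 962 lower. The call of g691 at 12 h was lost relative to the median gene, whereas g7989 at 12 h and g6874 at 24 h were called on that scale, at -1.10 and -1.04.

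**Figure D2:**
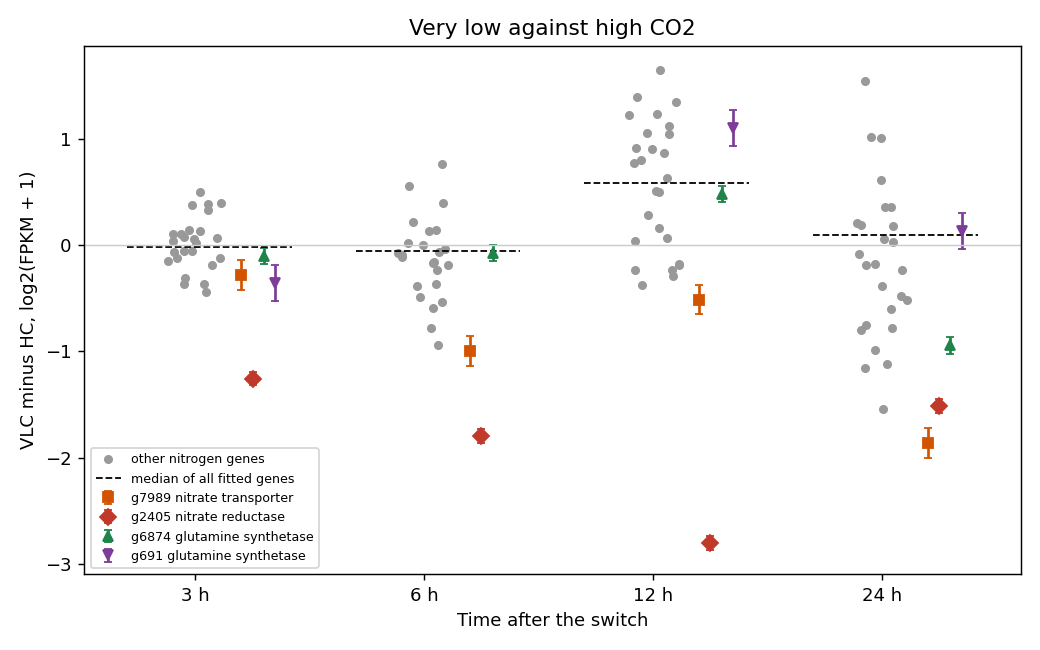
Difference between VLC and HC on the log2(FPKM + 1) scale at 3, 6, 12 and 24 h. Coloured symbols with SE bars are the 4 genes, grey points are the other nitrogen genes tested and dashed lines are the median of the 9265 genes in the model; g2405 lies at the bottom at 3, 6 and 12 h and g7989 at 24 h, and the median gene stands at 0.58 at 12 h.

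Against 0 h, which asks how each arm moved with time, the comparisons all share the same pair of 0 h libraries. For g7989 the log2 difference from 0 h was -1.46, -3.42, -3.76 and -3.34 in VLC and -1.17, -2.42, -3.24 and -1.48 in HC at 3, 6, 12 and 24 h. For g2405 it was -1.38, -1.63, -1.48 and -1.47 in VLC and -0.13, 0.17, 1.32 and 0.05 in HC. For g6874 it was -0.30, -1.50, -1.70 and -1.04 in VLC and -0.20, -1.42, -2.18 and -0.09 in HC. For g691 it was -0.76, -1.47, -1.03 and -0.66 in VLC and -0.40, -1.55, -2.12 and -0.79 in HC. Of 32 differences from 0 h, those above 0 were the HC values of g2405 from 6 h on, and relative to the median gene g2405 in HC at 12 h stood at 1.85. At 12 h the median gene itself stood at 0.15 in VLC and -0.52 in HC against 0 h. In VLC the rule marked 2 of the 4 genes as lower at 3 h (of all genes 14.8% called and 4.87% lower), 4 after 6 h (37.6% and 16.5%), 4 after 12 h (44.3% and 15.6%) and 3 after 24 h (35.7% and 14.8%). In HC it marked 1 as lower at 3 h (11.9% and 3.71%), 3 after 6 h (36.1% and 15.7%), 3 after 12 h (58.8% and 36.4%) and 1 after 24 h (25.4% and 11.3%), and g2405 as higher at 12 h (22.4% of all genes higher). Nothing is read from these counts of the 4 genes either, because the genes were picked with their levels known. Relative to the median gene, calls over all genes in HC at 12 h numbered 2500 higher and 1779 lower in place of 1862 and 3028. The single HC call at 3 h, that of g7989, was lost without HC replicate 2 of that time (log2 difference -0.997, just short of 2-fold), and the call of g691 in VLC at 12 h was lost without VLC replicate 2 of that time (-0.95).

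The transporter lies beside a second nitrate reductase gene. g7988, annotated as nitrate reductase 1, occupies scaffold00271:263203-267456, 654 bases from g7989, and over the 18 libraries the log2 levels of the pair had a Pearson r of 0.970. g7988 stood at 1279 and 1383 FPKM at 0 h, and in VLC it stood at 786 and 675 after 3 h, 250 and 164 after 6 h, 245 and 235 after 12 h, and 168 and 190 after 24 h. In HC it stood at 829 and 794 after 3 h, 388 and 393 after 6 h, 254 and 290 after 12 h, and 518 and 531 after 24 h. It was thus high where the transporter was high, and did not peak with g2405 in HC at 12 h. In VLC at 24 h it was lower than in HC (log2 difference -1.55, SE 0.14, adjusted p = 3.74e-07 in limma), while at 12 h the difference was -0.18 (adjusted p = 0.263 in limma). The median gene stood at 0.58 at 12 h, so relative to it g7988 was lower in VLC by more than that. At 6 h the g7988 difference was -0.94 (adjusted p = 0.000479 in limma), short of 2-fold.

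The balance of the 2 reductase mRNAs, measured per length, therefore changed with CO2 and time. The level of g2405 was 0.129 and 0.130 of that of g7988 at 0 h. In VLC it was 0.0840 and 0.0962 after 3 h, 0.212 and 0.348 after 6 h, where the 2 libraries lay apart, and 0.252 and 0.257 after 12 h. In HC it was 0.184 and 0.206 after 3 h, 0.502 and 0.489 after 6 h, and 1.75 and 1.45 after 12 h. HC at 12 h was the group in which g2405 exceeded g7988, and at 24 h the ratios of the arms overlapped, at 0.363 and 0.326 in VLC and 0.343 and 0.336 in HC. The transporter exceeded g7988 by a factor of 3.66 and 3.79 at 0 h, which was 1.52 and 1.53 in VLC libraries of 12 h. It exceeded g2405 by a factor of 28.2 and 29.3 at 0 h and of 1.09 and 1.34 in HC at 12 h.

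**Figure D3:**
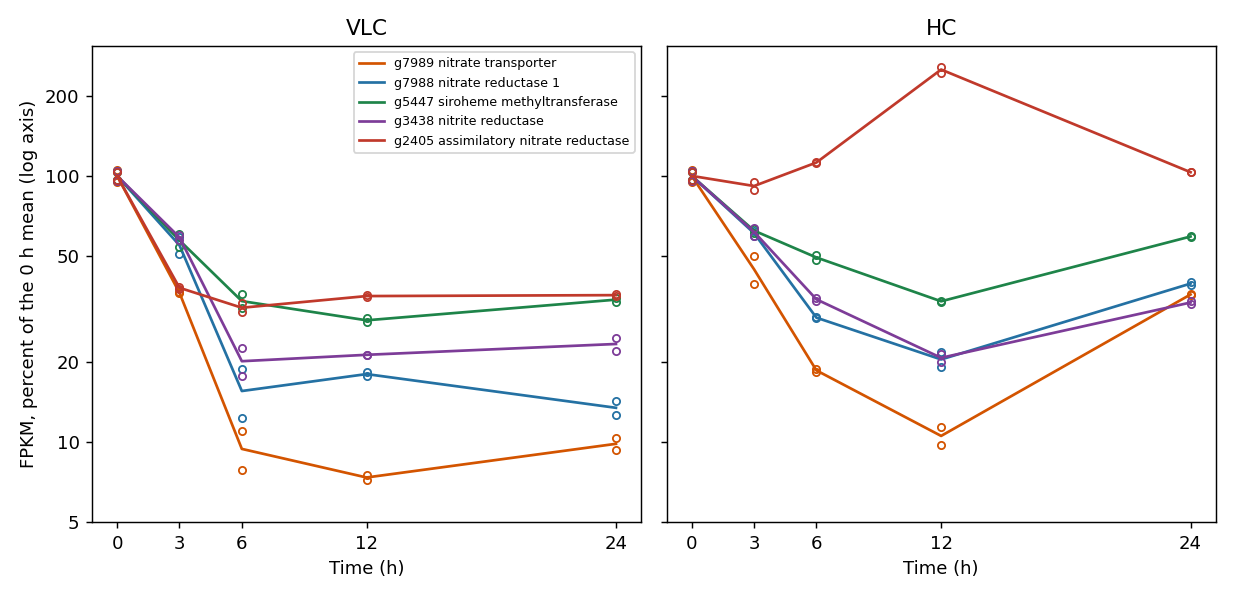
FPKM as a percent of the 0 h mean (log axis) against time in hours in VLC (left) and HC (right) for the transporter g7989, nitrate reductase 1 g7988, the siroheme methyltransferase g5447, the nitrite reductase g3438 and the assimilatory nitrate reductase g2405; circles are libraries and lines join means of 2. In HC at 12 h g2405 stood at 251% of 0 h while g7989 stood at 10.5%.

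The genes with the profile most like that of each of the 4 were found by Pearson r of log2(FPKM + 1) over the 18 libraries, which share their groups and their 0 h libraries, among 9264 other genes. For the transporter g7989 these were g5447 (uroporphyrinogen-III C-methyltransferase, which makes the precursor of siroheme, r = 0.989), g7988 (r = 0.970), g6145 (methylene tetrahydrofolate dehydrogenase, r = 0.969), g8028 (cyclin-dependent protein kinase, r = 0.959) and g9734 (haloacid dehalogenase-like hydrolase, r = 0.957). The ferredoxin nitrite reductase g3438 came at place 9 with r = 0.954. For g2405 they were the unannotated g5607 (r = 0.948) and g8013 (r = 0.931), the ferredoxin component g2456 (r = 0.867), the predicted protein g9217 (r = 0.861) and the unannotated g7214 (r = 0.834). The level of g2456 ranged from 3.33 to 303 FPKM over the libraries and that of g9217 from 2.23 to 430 FPKM.

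For the abundant glutamine synthetase g6874 the most similar genes were g2004 (dehydroascorbate reductase, r = 0.984), g545 (annotated as nitrite transporter NAR1, r = 0.984), the unannotated g7796 (r = 0.979) and g9791 (r = 0.974), and g3642 (prohibitin, r = 0.973). For g691 they were g6133 (a purine synthesis enzyme, r = 0.983), the unannotated g8532 (r = 0.982), g9371 (RNA polymerase I, r = 0.981), g7179 (predicted protein, r = 0.980) and g2328 (hypothetical protein, r = 0.977). Between the 4 genes themselves r was 0.873 for g7989 and g6874, 0.842 for g691 and g6874, and 0.691 for g7989 and g691. With g2405 it was 0.298 for g7989, -0.07 for g6874 and -0.29 for g691.

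Of the other scaffold neighbours, some had a profile close to that of the member beside them and some did not. Values of r this high were common for the 2 glutamine synthetases. With g691 an r of 0.911 came at place 180 of 9264 genes and one of 0.834 at place 661. With g6874 an r of 0.905 came at place 230 and one of 0.789 at place 953. The gene 186 bases from g2405, g2406 (40S ribosomal protein S17), had r = 0.174 with it. The gene 17 bases from g6874, g6875 (cysteine desulfurase), had r = 0.759, and g6873, 104 bases away on the other side, had r = 0.912. The gene 54 bases from g691, g692 (alpha/beta hydrolase fold), had r = 0.825, g690 on the other side, 294 bases away, had r = 0.853, and g689 (CDGSH iron sulfur domain), 2774 bases away, had r = 0.911. For the 2 further neighbours on the far sides of g6874, g6872 and g6876, r was -0.689 and -0.731. It was -0.469 for g694, 4994 bases from g691, and -0.458 for g7990, 647 bases from g7989. Counting did not use strand, so fragments at the ends of such close neighbours could not be assigned by strand.

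The rest of the pathway was followed in 29 further genes taken by annotation words or ID, of which g532 carries another annotation in the deposited table (putative Ufm1-specific protease) and g5075 stayed under a mean of 10 FPKM in every group and was not tested. Between VLC and HC limma called 0 of the 25 tested at 3 h and 0 of the 24 tested at 6 h, with 8 and 12 at an unadjusted p under 0.05. Their median log2 difference was 0.04 at 3 h (all genes -0.02) and -0.10 at 6 h (all genes -0.06). At 12 h it called 8 of 26, against 32% of all genes (27.6% higher), and all 8 were higher in VLC: the glutamate synthases g293 and g4703, the molybdopterin genes g5115 and g5390, the NAR1 gene g6826, the urease accessory genes g8006 and g9337, and the asparagine synthetase domain gene g8372. Their list's median was 0.70 against 0.58 for all genes, and relative to the median gene the one call was g6826. Its means were 11.3 FPKM in HC and 37.4 in VLC. Before the median of 0.58 is taken off, its log2 difference was 1.65 (SE 0.15, adjusted p = 2.21e-07 in limma). The deposited table annotates g6826 as a nitrite transporter, while the study lists g6826 and g532 as possible homologs of an algal bicarbonate transporter, so what g6826 carries is not settled. At 24 h it called 6 of 26, against 17.2% of all genes, with a list median of -0.19 against 0.09 for all genes. The ammonium transporter g6291 (log2 difference -1.12), the nitrite transporter g545 (-1.16) and g7988 (-1.55) were lower in VLC. The glutamate dehydrogenase g1847 (1.01), the asparagine synthase g8147 (1.54) and g9337 (1.00) were higher, g1847 and g9337 only just past the 2-fold limit. With single libraries of 24 h left out, not all of the higher calls held. Relative to the median gene g1847 (0.92) and g9337 (0.91) were under 2-fold and not called, and the molybdenum cofactor gene g5951 was called lower (-1.09), which gave 1 higher and 4 lower.

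Against 0 h most of the called genes were lower in both arms from 6 h on. In VLC 15 of 27 were called after 6 h (3 higher, 12 lower, with 37.6% of all genes called), 10 of 27 after 12 h (3 higher, 7 lower, with 44.3%), 10 of 25 after 24 h (3 higher, 7 lower, with 35.7%) and 4 of 25 after 3 h (2 higher, 2 lower, with 14.8%). In HC 16 of 27 were called after 6 h (3 higher, 13 lower, with 36.1% of all genes called), 18 of 26 after 12 h (2 higher, 16 lower, with 58.8%), 5 of 26 after 24 h (1 higher, 4 lower, with 25.4%) and 2 of 26 after 3 h (1 each way, with 11.9%). Of all genes, 4.87%, 16.5%, 15.6% and 14.8% were called lower in VLC after 3, 6, 12 and 24 h. The shares called lower in HC were 3.71%, 15.7%, 36.4% and 11.3%. The list's median log2 difference from 0 h was lowest in HC at 12 h, -1.36 against -0.52 for all genes. The gap to all genes was wider at 6 h. There the list's median was -0.99 in HC (all genes 0.08) and -0.90 in VLC (all genes 0.06). The ferredoxin nitrite reductase g3438, whose product is ammonium, the substrate of glutamine synthetase, fell from 2160 FPKM at 0 h to VLC and HC means of 459 and 448 FPKM by 12 h (log2 differences -2.23 and -2.27, SE 0.094, adjusted p = 2.89e-11 and 1.57e-11 in limma). The median gene stood at 0.15 in VLC and -0.52 in HC against 0 h at 12 h. Relative to it g3438 lay further below 0 h in VLC than in HC at that time. At 24 h the VLC mean of g3438 was 505 FPKM and the HC mean 722 FPKM, and its VLC-HC difference of -0.52 was under 2-fold (adjusted p = 0.000247 in limma). The ammonium transporter g7791 fell from 2905 FPKM to VLC and HC means of 529 and 745 FPKM by 6 h (log2 differences -2.46 and -1.96).

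Some other genes of the list stood above 0 h at 12 h in both arms. The NAD-dependent glutamate dehydrogenase g1847, which releases ammonium from glutamate in many organisms, rose from 24.1 FPKM at 0 h to VLC and HC means of 104 and 72.7 FPKM by 12 h (log2 differences 2.07 and 1.56, SE 0.065, adjusted p = 1.79e-12 and 1.55e-11 in limma). Against 0 h at 12 h the median gene stood at 0.15 in VLC and -0.52 in HC. Relative to it the rise of g1847 was no longer larger in VLC than in HC. The molybdenum cofactor sulfurase g2361 had 8.40 FPKM at 0 h, 72.8 in VLC and 64.9 in HC at 12 h, and 4.27 or less in the other groups. That peak was called against 0 h in both arms (log2 differences 2.97 and 2.81), and the VLC-HC difference of 0.16 at 12 h was not (adjusted p = 0.195 in limma). The median gene stood at 0.58 in that VLC-HC comparison.

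**Figure D4:**
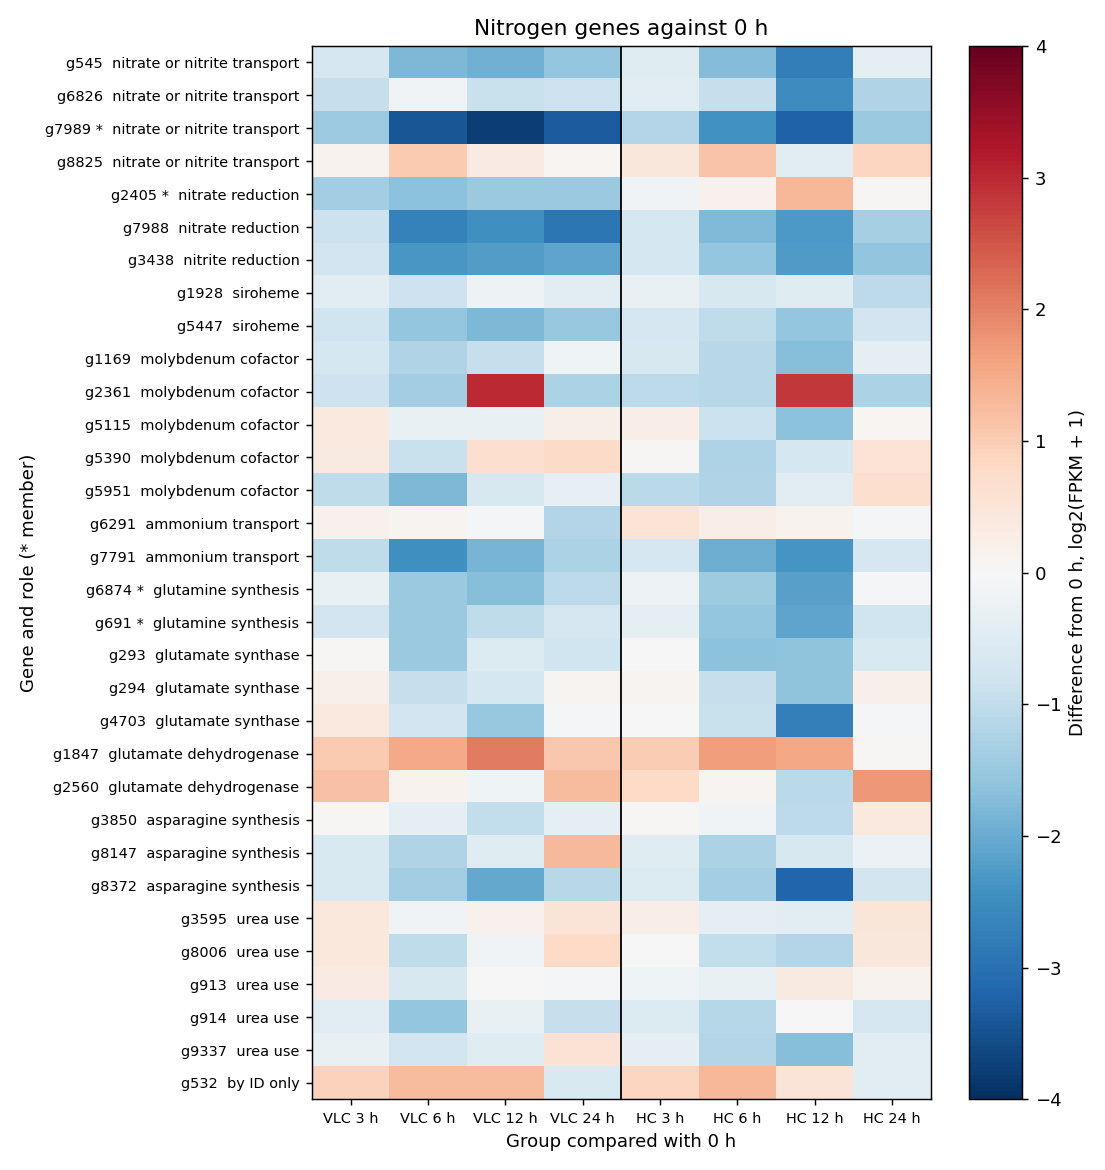
Difference from 0 h on the log2(FPKM + 1) scale (colour, blue lower and red higher) for 32 nitrogen genes in rows, grouped by role with a star at the 4 genes described, against VLC and HC at 3, 6, 12 and 24 h. The transporter g7989 has the lowest values, down to -3.76 in VLC at 12 h, and g2405 is blue in VLC and red in HC at 12 h.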

How the data were processed

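Per the file headers and labels, the deposited table holds FPKM for 9756 genes in 18 libraries. The authors aligned the reads of poly(A) libraries to the IMET1 genome with TopHat2 2.0.4, left out reads mapping to several places, did not use strand, and computed FPKM with Cufflinks (2.0.2 in the submitters' processing notes). FPKM do not carry depth. Scaled by the aligned reads of each library, 450 of 741 low values came within 0.1 of a whole multiple of their gene's lowest value, which need not be 1 read. Counts were not recovered and no count test was run. Each library listed 35 to 84 genes at 0.

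Levels were tested as log2(FPKM + 1) with limma 3.58.1 in R 4.3.3 with a variance trend, the 9 groups in 1 model of the 9265 genes reaching a mean of 10 FPKM in a group, and tested on simulated data. Correlations, figures and counts used Python 3.11.15, numpy 2.4.6, pandas 2.3.3 and matplotlib 3.10.9. Named genes were the 4 genes, a list of 29 by annotation or ID, 2 scaffold neighbours on each side and the 5 most similar genes. The genes and lists were chosen with earlier results of these data known. The alternatives were a pseudocount of 0.1, no filter on FPKM, no variance trend, values relative to the median gene, a replicate block and leaving out each library.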

Additional observations from a re-analysis of the deposited data

Results flagged for a closer look

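The VLC-HC difference of a gene was compared between successive times, relative to the median gene, a test added after the data had been seen (limma, adjusted over the genes tested). Between 3 and 6 h it passed for 1 of 26 nitrogen genes tested and 1.38% of all genes: the NAR1 gene g6826, whose difference changed by 1.23 on the log2 scale (adjusted p = 0.00445 in limma), from -0.45 to 0.76 before the median is taken off. Between 6 and 12 h it passed for 0 of 27 in limma, against 16% of all genes. Between 12 and 24 h it passed for 3 of 28, against 17.6% of all genes. The NAR1 gene g545 changed by -1.44 (adjusted p = 1.63e-06 in limma), from 0.86 to -1.16 before the median is taken off. The glutamate dehydrogenase g1847 changed by 1.08 (adjusted p = 3.48e-07 in limma) and the asparagine synthase g8147 by 1.97 (adjusted p = 2.68e-06 in limma). Before the median is taken off, g1847 changed by 0.51, which did not pass, and g8147 by 1.39, which did. The means of g8147 at 12 h were 8.52 FPKM in VLC and 7.57 in HC, both under the FPKM minimum of the call rule.

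The assimilatory nitrate reductase g2405 lay below both 0 h libraries in both VLC libraries and above them in both HC libraries at 6 h and at 12 h. The VLC-HC differences there were -1.79 and -2.81, and this opposition was not tested, since the gene was chosen for its levels.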

How the results depend on the processing

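Relative to the median gene, 1 of the 29 nitrogen genes was called between VLC and HC at 12 h in place of 8, and 1 in HC at 3 h against 0 h in place of 2. At 24 h that scale left 1 higher and 4 lower in the list in place of 3 and 3. No other count for the 4 genes or the list moved by over 1.5 times with a pseudocount of 0.1, without the FPKM filter, without the variance trend or with the replicate block. Replicate numbers did not pair the samples: over 36 pairs of groups the correlation of same-numbered deviations was -0.178 to 0.128. With the block 2 of the 4 genes and 8 of the list were called between VLC and HC at 12 h. Leaving out a library, counts for the list in HC at 3 h against 0 h ranged from 0 (without 0 h replicate 2) to 3 (without HC replicate 1 of 3 h), and between VLC and HC at 6 h from 0 to 1 (without VLC replicate 1 of 6 h). Counts for the 4 genes ranged from 0 to 1 in HC at 3 h against 0 h, and between VLC and HC at 6 h from 1 to 2, where g7989 was called at -1.24 without VLC replicate 1 and -1.01 without HC replicate 1 of that time. Of 240 values of the 4 genes under the other settings 237 kept their side of the threshold, and of 192 with a library left out 188 did; none changed sign while called. With 2 libraries a group, precision rests on the spread shared over all groups, and leaving one out assumes that the lone library varies like the others. FPKM hold no counts, so counting error at low levels such as those of g691 is not known.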
